A study of Mus musculus with 4 samples.

Results

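Transitional alveolar cells are described here across 4 single-cell RNA-seq libraries of lineage-labelled mouse lung epithelium, as the cells that held Cldn4 together with the keratins Krt7 or Krt19 and few transcripts of club, ciliated, mesothelial or alveolar type 1 (AT1) genes. A cell was a member if it had 500 or more genes, at most 20% mitochondrial UMIs (unique molecular identifiers, each counting 1 captured transcript), at least 1 UMI of Cldn4 and at least 2 UMIs of Krt7 and Krt19 together. The secretoglobins Scgb1a1, Scgb3a1 and Scgb3a2 with Cyp2f2 had to stay below 3% of its UMIs, and Ager, Hopx, Rtkn2, Akap5, Aqp5, Clic5, Pdpn and Cav1 together below 0.8%. It also had to show fewer than 2 of Foxj1, Ccdc153, Fam183b, Msln and Upk3b. These conditions were met by 224 of 10756 cells, of which 142 came from the 12-month bleomycin library, 73 from the 3-month bleomycin library, 5 from the 12-month PBS library and 4 from the 3-month PBS library. Members were set against the alveolar type 2 (AT2) cells of their own library, which were the other cells with Sftpc at 5% or more of UMIs.

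All mice carried Sftpc-creER;Rosa26-mTmG, in which the promoter of the surfactant gene Sftpc drives a tamoxifen-inducible recombinase that switches the cell to GFP, and all received tamoxifen before treatment. The groups were 12-month-old mice at day 30 after 1 intratracheal dose of 0.8 U/kg bleomycin, 3-month-old mice at day 30 after the same dose, 12-month-old mice given PBS and 3-month-old mice given PBS, both taken at day 0. CD45- CD31- GFP+ cells of 3 mice were pooled into 1 library per group, so there was no replicate, and treatment could not be told apart from day. The intervals below are 95% intervals for counting error alone and do not cover differences between mice.

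AT2 cells make surfactant and renew the alveolar lining, and after injury they can give rise to the flat AT1 cells that carry gas exchange. In mouse lung injury, AT2 cells on this route pass through a transitional state known for Krt8, Cldn4, Sfn and Lgals3 and for p53, TGF-beta and stress signatures, and cells in this state are known to accumulate in fibrotic lung. Cldn4 encodes claudin 4, a tight junction protein, and keratins 7, 8, 18 and 19 form the intermediate filaments of simple epithelia.

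Library depth differed between the groups. The bleomycin libraries held 36960380 UMIs at 12 months and 23379893 at 3 months, and the PBS libraries 14214212 at 12 months and 11381566 at 3 months. The median member held 13889, 10891, 5810 and 5505 UMIs in the 12-month bleomycin, 3-month bleomycin, 12-month PBS and 3-month PBS libraries, where the median AT2 cell held 12381, 8500, 5136.5 and 4563. Of 10841 distinct barcode sequences, 68 occurred in more than 1 library. 4 members had a barcode that also occurred elsewhere, and 0 barcodes were members in more than 1 library.

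Promoter letters of Cldn4, of keratins and of the genes highest in the members are described first. Of the 15 genes highest in members of both bleomycin libraries, listed further on, 10 had a promoter entry in RefSeq (build GRCm38.p6). In the 250 bases before the outermost start of the gene, 3 of the 10 (F3, Plaur and Sprr1a) held TGACTCA on either strand, the core letters of the AP-1 motif, where 4.43% of 27025 genes held it. Prss23, which has 7 annotated starts, held it before another of them, and over all starts of all genes the share was 5.16%. None of the 10 matched genes among the 15 lowest held it (0 of 10). Cldn4 held 2 copies, 240 and 158 bases before its start, and Krt7, Krt8 and Krt18 held none. S100a6 and Sfn, among the 15 highest, also held none. GGAATG, the core letters of the TEAD motif, stood before the outermost start in 0 of the 10 highest genes and in 12.6% of all genes, and GGGCGG, the GC box, in 5 of the 10 and in 33.0% of all genes. The windows of Cldn4, F3, Plaur and Sprr1a follow, and were picked for display because they held TGACTCA. They run 5′ to 3′ on the strand of the gene, with TGACTCA and its reverse complement in capitals. The letters of AP-1 and TEAD can share bases, which did not occur in these genes because none held GGAATG. A match describes letters in these windows and is neither a bound site nor a cause.
Cldn4, chr5:134946935-134947184, minus strand: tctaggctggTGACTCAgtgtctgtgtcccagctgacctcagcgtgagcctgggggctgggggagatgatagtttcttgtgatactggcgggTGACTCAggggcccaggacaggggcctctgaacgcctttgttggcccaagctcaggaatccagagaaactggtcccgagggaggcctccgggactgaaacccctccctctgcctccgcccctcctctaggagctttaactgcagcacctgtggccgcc
F3, chr3:121723287-121723536, plus strand: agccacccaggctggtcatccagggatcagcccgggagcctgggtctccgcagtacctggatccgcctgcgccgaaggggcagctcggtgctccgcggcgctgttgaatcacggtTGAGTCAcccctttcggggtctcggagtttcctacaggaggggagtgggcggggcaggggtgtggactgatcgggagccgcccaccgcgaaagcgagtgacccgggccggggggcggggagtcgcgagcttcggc
Plaur, chr7:24462233-24462482, plus strand: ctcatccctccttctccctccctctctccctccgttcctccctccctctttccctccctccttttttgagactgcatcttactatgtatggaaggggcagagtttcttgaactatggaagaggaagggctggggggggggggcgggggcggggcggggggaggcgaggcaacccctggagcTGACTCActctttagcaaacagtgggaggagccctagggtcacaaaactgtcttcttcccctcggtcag
Sprr1a, chr3:92485882-92486131, minus strand: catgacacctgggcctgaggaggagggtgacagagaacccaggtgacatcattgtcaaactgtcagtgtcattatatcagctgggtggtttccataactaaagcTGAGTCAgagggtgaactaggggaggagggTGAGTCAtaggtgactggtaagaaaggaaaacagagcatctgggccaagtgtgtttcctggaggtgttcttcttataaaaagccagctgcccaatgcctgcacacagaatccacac

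Transitional cells made up a larger share of the bleomycin libraries than of the PBS libraries at both ages. The share was 4.74% (exact Clopper-Pearson interval 4.01 to 5.57%) in the 12-month bleomycin library, 2.78% (2.19 to 3.49%) in the 3-month bleomycin library, 0.182% (0.0592 to 0.425%) in the 12-month PBS library and 0.167% (0.0455 to 0.427%) in the 3-month PBS library. The intervals of the bleomycin libraries lay above those of the PBS libraries. Because the rule counts UMIs, each cell was also thinned to 3000 UMIs before the rule was applied, which left out 0, 114, 321 and 391 shallower cells. The shares then were 1.47% (44 of 2993 cells), 1.35% (34 of 2510), 0.124% (3 of 2424) and 0.0999% (2 of 2003) in the same order. At equal depth the 12-month and 3-month bleomycin shares differed by less than their intervals (1.07 to 1.97% and 0.940 to 1.89%), whereas the bleomycin shares still lay above the PBS shares.

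**Figure D1:**
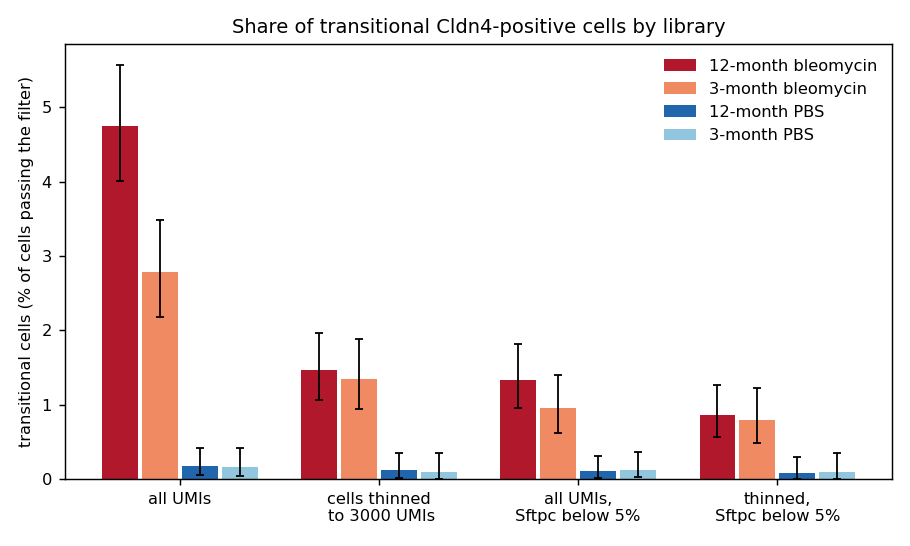
Share of transitional cells among cells passing the filter (y axis, percent) in the 12-month bleomycin, 3-month bleomycin, 12-month PBS and 3-month PBS libraries, from all UMIs and after thinning each cell to 3000 UMIs, for all members and for those with Sftpc below 5% of UMIs; bars are the share in 1 library and lines the exact 95% counting interval. The bleomycin bars stand above the PBS bars in every setting, and the 12-month and 3-month bleomycin bars, 4.74% and 2.78% from all UMIs, stand at 1.47% and 1.35% after thinning.

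Cells with leukocyte markers, which should lack Cldn4, were examined for stray Cldn4 UMIs. The source of such UMIs was not tested, and the median such cell held fewer UMIs than the median member. Cells with 10 or more UMIs of leukocyte markers and no Epcam held a Cldn4 UMI in 2 of 233 cells (0.858%) of the 12-month bleomycin library at a median of 5778 UMIs, and in 0 of 56 cells of the 3-month bleomycin library at a median of 3925.5 UMIs, which allows up to 5.36%. The 2 keratin UMIs were present in 16 of 233 and 2 of 56 of these cells, and none held both (0 of 233 and 0 of 56). Members had been left out of these cells beforehand, so the 0 counts are partly set by construction. In the 12-month bleomycin library 5 members held 10 or more UMIs of leukocyte markers, and in the 3-month bleomycin library 0 did. Among the AT2 cells, which by construction exclude members, a Cldn4 UMI occurred in 1.66%, 1.64%, 0.0779% and 0.0433% of cells of the 12-month bleomycin, 3-month bleomycin, 12-month PBS and 3-month PBS libraries. A doublet caller marked 1 member in each bleomycin library and none of the 9 PBS members. Among all cells passing the filter it marked 72 of 2993, 56 of 2624, 63 of 2745 and 48 of 2394, in the same order of libraries. The number marked was set by an expected rate of 2.40%, 2.12%, 2.25% and 1.96%, so few marked members do not show that doublets are absent.

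Krt8 and Sfn, which the rule did not use, were higher in members than in AT2 cells of every library, as the label of a keratin-high transitional state states. Krt8 (GRCm38 chr15:101996698-102004482) was at 1307 counts per 1000000 UMIs (CPM) in members and 315 CPM in AT2 cells of the 12-month bleomycin library, a 4.15-fold ratio (3.98 to 4.33). In the 3-month bleomycin library Krt8 was at 1871 CPM in members and 233 CPM in AT2 cells (8.03-fold, 7.58 to 8.51). The 5 members of the 12-month PBS library held Krt8 at 1281 CPM (945 to 1699), against 145 CPM in AT2 cells, and the 4 members of the 3-month PBS library at 1216 CPM (821 to 1737), against 176 CPM. Without the member richest in Krt8 these levels were 1002 CPM (603 to 1565) and 796 CPM (455 to 1293).

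Sfn (chr4:133600556-133602168), which encodes the 14-3-3 sigma protein of the p53 response, was at 488 CPM in members and 75.1 CPM in AT2 cells of the 12-month bleomycin library (6.50-fold, 6.04 to 6.99). In the 3-month bleomycin library Sfn was at 648 CPM in members and 46.8 CPM in AT2 cells (13.8-fold, 12.4 to 15.4). PBS members held Sfn at 988 CPM at 12 months and 730 CPM at 3 months, against 48.3 and 64.1 CPM in AT2 cells. In the 12-month PBS library 33 of the 37 Sfn UMIs came from 1 member and 2 of the 5 held none, and without that member the level was 211 CPM (57.5 to 540). Without the member richest in Sfn, the 3-month PBS level was 460 CPM (210 to 873). Since the cells were chosen on transcripts of the same cells, these ratios describe the members and carry no test.

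The 9 PBS members were unlike each other and are given by cell. In the 12-month PBS library, the cell with the most UMIs (18508) held 5 UMIs of Cldn4, 59 of Krt7 and Krt19, 29 of Krt8, 33 of Sfn, 41 of S100a6 and 42 of the cell-cycle inhibitor Cdkn1a. The other 4 held 1 UMI of Cldn4 and 3 of Krt7 and Krt19 each. Of these 4, the cell with 3753 UMIs also held 36 UMIs of Calca, 36 of Resp18 and 7 of Insm1, all genes of neuroendocrine cells. In the 3-month PBS library the Cldn4 counts were 1, 2, 1 and 12 UMIs, and the cell with 9089 UMIs held 22 UMIs of Ube2c and 15 of Birc5, both mitotic genes. Sftpc took 2.19%, 1.0%, 7.24% and 1.86% of their UMIs in the same order. With 37464 UMIs in the 12-month and 24661 UMIs in the 3-month PBS members, 1 UMI equals 26.7 and 40.5 CPM, so comparisons with AT2 cells across genes were made in the bleomycin libraries.

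Members of the bleomycin libraries were not a uniform group, and ran from cells with nearly no Sftpc to cells at the Sftpc level of AT2 cells. The Sftpc share of a member ran from 0.932% to 23% with a median of 9.88% at 12 months, and from 0.878% to 21.1% with a median of 10.2% at 3 months, where the median AT2 cell held 16.5% and 16.9%. In the 12-month library 40 members had Sftpc below 5% and 102 at 5% or more, and in the 3-month library 25 and 48. This split was chosen after the values were seen. In the 12-month library it divides a range, with 5 members at 4 to 5% and 7 at 5 to 6%. In the 3-month library it falls at a gap, with 25 members below 2%, 0 between 2% and 5% and 3 at 5 to 6%. The median leukocyte-marker cell held 1.13% and 1.25% Sftpc in the 12-month and 3-month libraries, so the Sftpc-low members, with medians of 1.70% and 1.17%, were near the level of cells that do not make Sftpc.

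Cldn4 was higher at the Sftpc-low end of this range. The 23 members of the 12-month bleomycin library with Sftpc below 2% held a median of 11 Cldn4 UMIs, and the 25 such members of the 3-month library a median of 7. Members with Sftpc at 10% or more, 70 at 12 months and 38 at 3 months, held a median of 1. Many members thus stood at the edge of the rule: 90 of 142 at 12 months and 39 of 73 at 3 months held exactly 1 Cldn4 UMI. In the 12-month library these 90 cells had Krt8 at 579 CPM and Sfn at 134 CPM, against 402 and 91.7 CPM in the 1272 cells that met every other condition but held no Cldn4 UMI. The 52 members with 2 or more Cldn4 UMIs had Krt8 at 2690 CPM and Sfn at 1159 CPM. In the 3-month library Krt8 was at 977 CPM in the 39 members with 1 Cldn4 UMI and at 3034 CPM in the 34 members with more, and at 310 CPM in the 797 cells that met every other condition without Cldn4.

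The keratins and the surfactant genes changed in opposite directions along the range. Krt8 was at 2876 CPM in 12-month bleomycin members with Sftpc below 2%, at 2406 CPM between 2% and 5%, at 1560 CPM between 5% and 10% and at 536 CPM at 10% or more. In the 3-month library Krt8 was at 4258 CPM below 2%, at 1785 CPM between 5% and 10% and at 636 CPM at 10% or more, and no member lay between 2% and 5%. Krt18, the partner of Krt8 in filaments, had the same order, at 3586, 2738, 1934 and 777 CPM at 12 months and 4254, 2175 and 649 CPM at 3 months. Sftpa1, a surfactant protein gene, ran the other way at 12 months, at 4371, 6271, 15652 and 27206 CPM. Nkx2-1, the lung lineage transcription factor, was nearly level at 171, 153, 186 and 225 CPM at 12 months and at 299, 287 and 316 CPM at 3 months.

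Across members, Spearman's correlation with the Sftpc share was -0.64 for Krt8 at 12 months (142 cells) and -0.75 at 3 months (73 cells), -0.54 and -0.69 for Anxa1, and -0.62 and -0.61 for S100a6. The correlation was 0.73 and 0.79 for the lysozyme gene Lyz2 and 0.63 and 0.62 for the lamellar body gene Lamp3. It was 0.11 and 0.12 for Nkx2-1 and 0.20 and 0.19 for the number of UMIs in a cell. The gene values are shares of the same UMI totals within 1 library, so a high Sftpc share lowers the others, and the correlations are given as a description. Clu, which encodes clusterin, was also higher at the Sftpc-low end. It was at 7386 CPM below 2% and 768 CPM at 10% or more at 12 months, and at 4827 and 686 CPM in these bins at 3 months.

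**Figure D2:**
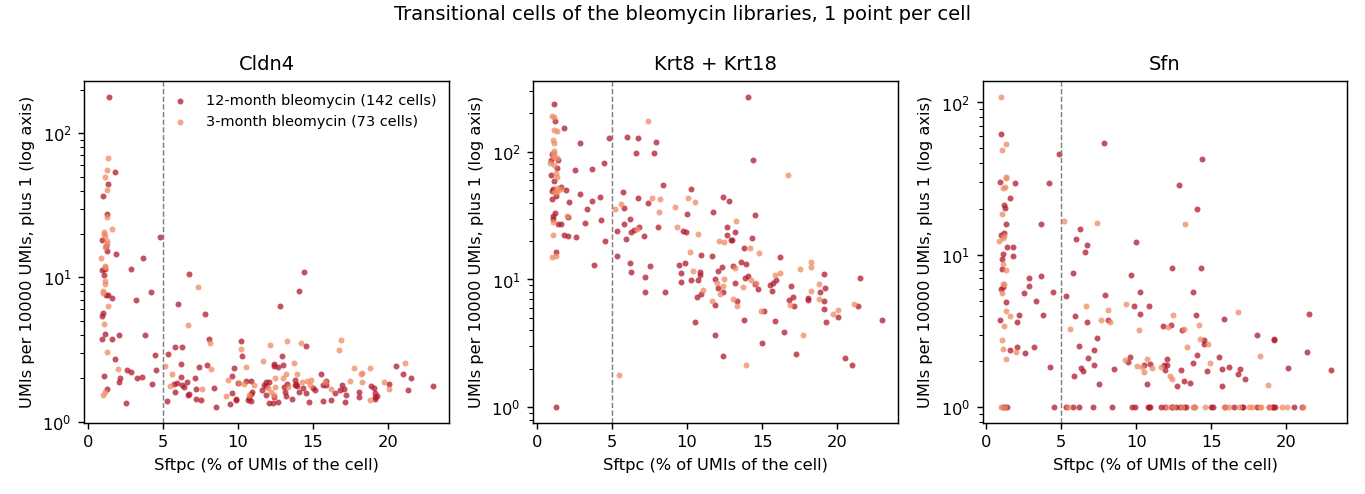
UMIs of Cldn4, of Krt8 and Krt18 together and of Sfn per 10000 UMIs, plus 1 (y axes, log scale) against the Sftpc percent of UMIs (x axes) in the 142 transitional cells of the 12-month bleomycin library and the 73 of the 3-month bleomycin library; each point is 1 cell and the dashed line marks 5% Sftpc. Of 28 cells with 5 or more Cldn4 UMIs at 12 months 19 lie below 5% Sftpc, and of 20 at 3 months 19 do. No 3-month cell lies between 2% and 5%, and Krt8 with Krt18 falls gradually as Sftpc grows.

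Genes were next compared between members and AT2 cells from UMIs summed over each population, with a call at 2-fold or more in genes at 20 CPM or more in either population and the genes of the rule left out. In the 12-month bleomycin library 175 of 4827 genes (3.63%) were higher and 34 (0.704%) lower in members. In the 3-month bleomycin library 516 of 5254 genes (9.82%) were higher and 77 (1.47%) lower. In both libraries 116 of 4578 genes (2.53%) were higher and 17 (0.371%) lower. The median log2 ratio of all genes was 0.25 at 12 months and 0.34 at 3 months, and ratios below are to be read against this shift. Without the 20 most abundant genes in the totals these medians were 0.004 and 0.11. With scaling by the median of ratios the medians were -0.01 and -0.06, and 98 genes were higher and 83 lower at 12 months and 232 higher and 255 lower at 3 months. Under this scaling, 71 of the 116 and 17 of the 17 genes passed 2-fold in both libraries. Of the 116 genes, 42 were also at 2-fold or more in both libraries in the members with Sftpc at 5% or more, and 111 had the same direction there. Of the 17 lower genes, 3 were at 2-fold or more in both libraries in these Sftpc-high members and 17 had the same direction.

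Sftpc-low members differed from AT2 cells in more genes than Sftpc-high members. The limit of 5% Sftpc also defined the AT2 cells, so Sftpc-high members met that condition and Sftpc-low members did not. This order is therefore partly set by the choice of groups. Members with Sftpc below 5% had 1250 of 5458 genes (22.9%) higher and 322 (5.9%) lower than AT2 cells at 12 months, and 2431 of 6197 (39.2%) higher and 403 (6.5%) lower at 3 months. Members with Sftpc at 5% or more had 54 of 4681 genes (1.15%) higher and 13 (0.278%) lower at 12 months, and 224 of 5008 (4.47%) higher and 49 (0.978%) lower at 3 months. The median log2 ratio of all genes was 0.54 and 0.79 in the Sftpc-low members and 0.18 and 0.21 in the Sftpc-high members, at 12 and 3 months. Among the genes of the 3-month Sftpc-low members past 2-fold, 1954 of the 2431 higher and 328 of the 403 lower had a counting interval off 0. The Sftpc-low groups hold 526394 UMIs from 40 cells and 240720 UMIs from 25 cells, so their counts of genes also rest on fewer transcripts.

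Among the 15 genes highest in both bleomycin libraries, S100a6, a calcium-binding protein of the S100 family, was at 1586 CPM in members and 94.0 CPM in AT2 cells of the 12-month bleomycin library, and at 2941 and 158 CPM in the 3-month bleomycin library. PBS members held S100a6 at 1388 CPM at 12 months and 3528 CPM at 3 months, against 86.7 and 263 CPM in AT2 cells. The ratios were 16.9-fold (16.1 to 17.7), 18.6-fold (17.7 to 19.6), 16-fold (11.9 to 21.1) and 13.4-fold (10.7 to 16.6) in the 12-month bleomycin, 3-month bleomycin, 12-month PBS and 3-month PBS libraries. In the 12-month PBS library 41 of the 52 UMIs came from 1 member and 2 of the 5 held none, and in the 3-month PBS library 52 of 87 came from 1 member. Without these cells the PBS ratios were 6.69-fold (3.33 to 12) and 6.63-fold (4.61 to 9.24), so S100a6 was higher in members than in AT2 cells of all 4 libraries with and without them.

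Pdlim7, an actin-associated PDZ-LIM protein, was at 25.9 CPM in members and 1.03 CPM in AT2 cells at 12 months and at 35.3 and 1.28 CPM at 3 months, where 1 cell gave 51.7% of its UMIs. Tpm2, a tropomyosin, was at 92.3 CPM in members and 6.13 CPM in AT2 cells at 12 months, and at 124 and 7.60 CPM at 3 months. Prss23, a serine protease, was at 40.0 CPM in members and 2.55 CPM in AT2 cells at 12 months, and at 106 and 3.95 CPM at 3 months. These 3 genes were detected in 16.2% to 43.8% of members.

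F3, which encodes tissue factor, the starter of coagulation, was at 81.4 CPM in members and 5.60 CPM in AT2 cells at 12 months (14.5-fold, 11.7 to 18), and at 175 and 3.75 CPM at 3 months (46.7-fold, 35.1 to 62.4). Plaur, the urokinase receptor of the fibrinolytic system, was at 50.0 CPM in members and 4.31 CPM in AT2 cells at 12 months (11.6-fold, 8.92 to 15.1), and at 34.0 and 1.33 CPM at 3 months (25.5-fold, 14.5 to 45.0). Tnip3, an inhibitor of NF-kB signalling, was at 58.6 and 4.34 CPM at 12 months, and at 93.6 and 2.37 CPM at 3 months, members first. F3, Plaur and Tnip3 were detected in 16.4% to 31.7% of members, and in the PBS members they rested on 0 to 4 UMIs each.

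Several of the highest genes rested on few cells. Fn1, which encodes fibronectin, was at 43.6 CPM in members and 5.60 CPM in AT2 cells at 12 months, and at 62.0 and 0.938 CPM at 3 months, where 1 cell gave 74.5% of its UMIs. Sprr1a, a cornified envelope precursor, took 74.6% of its UMIs from 1 cell at 12 months and 34.3% at 3 months. Basp1, a membrane-associated protein of neurons, took 41.9% and 52.6% from 1 cell. The remaining 5 of the 15, Prkcdbp, S100a14, Glipr1, Psca and Sfn, had log2 ratios of 2.70 to 3.24 at 12 months and 3.02 to 3.79 at 3 months. All 15 passed 2-fold in the Sftpc-low members of both libraries, and 11 of the 15 passed it in the members with Sftpc at 5% or more.

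Among the 15 genes lowest in members of both libraries, Scd1, the stearoyl-CoA desaturase, was at 1213 CPM in members and 3112 CPM in AT2 cells of the 12-month bleomycin library, and at 2578 and 5930 CPM in the 3-month bleomycin library. PBS members held Scd1 at 1308 CPM at 12 months and 1338 CPM at 3 months, against 6235 and 5616 CPM in AT2 cells. Scd1 was thus lower in members of all 4 libraries, by 2.56-fold, 2.30-fold, 4.77-fold and 4.2-fold in the 12-month bleomycin, 3-month bleomycin, 12-month PBS and 3-month PBS libraries. In the 3-month PBS library 20 of its 33 UMIs came from 1 member, and without that member Scd1 was 8.1-fold lower.

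Lyz2, a lysozyme of AT2 cells and macrophages, was at 14980 CPM in members and 35576 CPM in AT2 cells at 12 months after bleomycin, and at 16558 and 34262 CPM at 3 months. Lyz2 and its paralogue Lyz1 are close in sequence, and how shared reads were counted is not given in the sources used here. The apolipoprotein genes Apoe and Apoc1 had log2 ratios of -1.18 and -1.10 at 12 months and -1.12 and -1.35 at 3 months. The other 11 (Acoxl, Kcnj13, Atp7b, Gpt, Rprm, Bex2, Pxmp2, Fam126b, Itih4, Fabp12 and Anpep) had log2 ratios of -0.98 to -1.38 at 12 months and -0.99 to -2.38 at 3 months. Acoxl and Pxmp2 encode peroxisomal proteins, Gpt an alanine aminotransferase and Anpep an aminopeptidase. All 15 were lower than in AT2 cells in the members with Sftpc at 5% or more of both libraries, but of the 13 that passed 2-fold in all members of both libraries, 1 passed it there and 11 passed it in the Sftpc-low members.

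**Figure D3:**
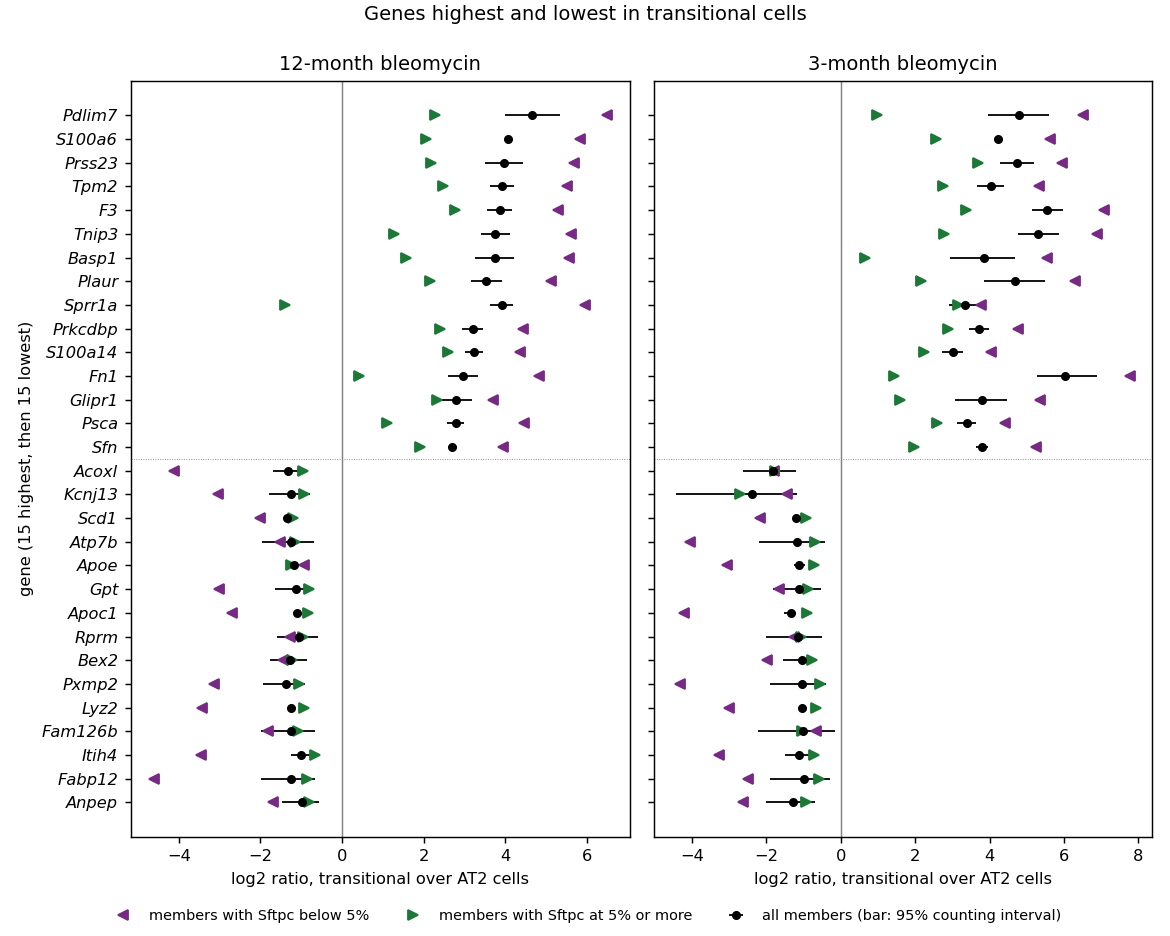
Log2 ratio of transitional over AT2 cells (x axis) for the 15 genes highest and the 15 lowest in both bleomycin libraries (y axis), in the 12-month library at left and the 3-month library at right; black points are all members with their 95% counting interval, left-pointing triangles members with Sftpc below 5% and right-pointing triangles members with Sftpc at 5% or more. Sftpc-low members lie farther from 0 than Sftpc-high members for all 15 highest genes in both libraries, and Sprr1a at 12 months is the only one of them below 0 (-1.39) in Sftpc-high members.

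Gene lists were read by their median and by the number of members of the list at 1.5-fold or more in both bleomycin libraries, where 484 of all 4578 genes (10.6%) were higher and 91 (1.99%) lower. Each median covers the genes of the list counted in that library, and the numbers cover those counted in both. A median at 12 months can thus rest on other genes than the median at 3 months. Some genes, such as Sfn, Cdkn1a, Itgb6, Fn1 and Tnip3, stand on several lists, so the lists are not independent of each other. In single libraries, 15.8% of genes were higher and 3.6% lower by 1.5-fold at 12 months, and 30.6% higher and 5.14% lower at 3 months. Of 23 counted transitional-state genes, 19 were higher and 0 lower, with medians of 1.88 at 12 months and 2.66 at 3 months on the log2 scale. Lgals3, which encodes galectin 3, was at 460 CPM in members and 151 CPM in AT2 cells at 12 months, and at 1077 and 188 CPM at 3 months. That list was drawn up with these cells known and with the same state in view as the rule, so its count is not independent evidence. Of 3 counted keratins outside the rule, Krt8 and Krt18 were higher (list medians 1.99 and 1.52). The other, Krt23, was at 97.3 CPM in members and 124 CPM in AT2 cells at 12 months and at 101 and 104 CPM at 3 months.

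Of 21 surfactant and AT2 genes, 7 were lower and 0 higher, with medians of -0.51 at 12 months and -0.64 at 3 months, and the AT2 cells were chosen by Sftpc itself. In members with Sftpc below 5% these medians were -1.78 and -2.40, and in the others -0.26 and -0.26. Sftpb, which encodes surfactant protein B, was at 14801 CPM in members and 18084 CPM in AT2 cells at 12 months, and at 13235 and 18399 CPM at 3 months. Abca3, the lipid transporter of lamellar bodies, was at 340 and 505 CPM at 12 months and at 347 and 596 CPM at 3 months, members first. Of 18 genes of cholesterol and fatty acid synthesis, 5 were lower and 0 higher (medians -0.52 and -0.87). Fasn, the fatty acid synthase, had log2 ratios of -0.85 and -1.09, and Acly, which supplies its acetyl-CoA, of -0.84 and -0.88. With scaling by the median of ratios, 13 and 17 of the 18 were at least 1.5-fold lower at 12 and 3 months.

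Of 15 counted AT1 genes outside the rule, 10 were higher and 0 lower, with medians of 0.67 at 12 months and 1.28 at 3 months. Emp2, a membrane protein of AT1 cells, was at 291 CPM in members and 183 CPM in AT2 cells at 12 months, and at 399 and 215 CPM at 3 months. Ndnf was at 84.1 and 32.5 CPM at 12 months and at 169 and 39.9 CPM at 3 months, members first. Vegfa did not follow, with log2 ratios of -0.37 and -0.52. Igfbp2 and Col4a3, on the same list, were not among the 15 because they missed the minimum of 20 CPM in 1 or both libraries. Igfbp2 had log2 ratios of -1.89 and -1.57, and Col4a3 of 1.05 and -0.97. Ager, the receptor that marks mature AT1 cells and one of the genes the rule limits, was nearly equal, at 2169 CPM in members and 2041 CPM in AT2 cells at 12 months and at 1926 and 1969 CPM at 3 months.

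The upper limit on AT1 genes cut through cells of this kind. It alone left out 12 cells of the 12-month and 19 of the 3-month bleomycin library, which had Krt8 at 2038 and 1864 CPM and a median Sftpc of 3.21% and 1.63%. Members just inside the limit, with AT1 genes at 0.6 to 0.8% of UMIs, numbered 10 and 5 and had Krt8 at 1007 and 2351 CPM. The limit on secretoglobins alone left out 8 and 10 cells, with Krt8 at 950 and 166 CPM.

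Of 19 counted cytoskeletal genes, 16 were higher in both libraries and 0 lower (medians 0.86 and 1.21). With median-of-ratios scaling, 11 and 13 of the 19 were higher at 12 and 3 months. Actb, beta-actin, was at 3889 CPM in members and 2274 CPM in AT2 cells at 12 months, and at 4861 and 2910 CPM at 3 months. Lmna, the nuclear lamin A/C, was at 240 and 81.5 CPM at 12 months and at 349 and 76.4 CPM at 3 months, members first. Tubb6, a beta-tubulin, had log2 ratios of 1.54 and 2.63. Of 16 S100 proteins and annexins, 10 were higher and 1, the calcium-binding S100g, lower (medians 0.94 and 1.23). Anxa1, a calcium-dependent phospholipid-binding protein, was at 635 CPM in members and 134 CPM in AT2 cells at 12 months, and at 991 and 101 CPM at 3 months. S100a10, S100a11, Anxa2 and Anxa5 had log2 ratios of 0.86 to 1.20 at 12 months and 1.23 to 1.87 at 3 months.

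Of 16 counted junction genes, 5 were higher and 0 lower (medians 0.46 and 0.90, and 0.22 and 0.45 with median-of-ratios scaling). Cldn7, a claudin of simple epithelia, was at 378 CPM in members and 210 CPM in AT2 cells at 12 months, and at 404 and 207 CPM at 3 months. Ocln, occludin, had log2 ratios of 1.11 and 2.15, Epcam of 0.83 and 1.31, and Cldn18, the main claudin of alveoli, of 0.48 and 0.61. Cldn3 had log2 ratios of 0.37 and 0.57, close to the shift of all genes. The high ratio of Cldn4 itself is fixed by the rule.

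Of 14 counted p53 targets, 6 were higher in both libraries and 0 lower, with medians of 0.41 at 12 months and 1.28 at 3 months. Sfn, among the 6, is also a transitional-state marker, so this count is not independent of the transitional-state list. Cdkn1a, the cell-cycle inhibitor p21, was at 404 CPM in members and 238 CPM in AT2 cells at 12 months (1.70-fold, 1.58 to 1.82), and at 548 and 129 CPM at 3 months (4.24-fold, 3.83 to 4.69). The AT2 cells of the 12-month bleomycin library thus held Cdkn1a at a higher level than those of the 3-month library. Phlda3, a p53 target that limits Akt, had log2 ratios of 0.83 and 1.99, and Bax, a mediator of apoptosis, of 0.53 and 1.24. With scaling by the median of ratios, the medians of the p53 list were 0.17 and 0.89, and 4 of 15 and 9 of 14 were higher by 1.5-fold.

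Cdkn2a, the locus of p16 and p19Arf that marks senescence, was at 27.7 CPM (61 UMIs in 16 of 142 members) against 2.92 CPM in AT2 cells of the 12-month bleomycin library (9.51-fold, 6.74 to 13.3). In the 3-month bleomycin library it was at 8.51 CPM (7 UMIs in 5 of 73 members) against 0.938 CPM in AT2 cells (9.07-fold, 3.22 to 22.5). PBS members held 0 UMIs, which with 3 UMIs as the limit allows up to 80.1 and 122 CPM at 12 and 3 months, and the 3′ counts do not separate the products of the locus. Igfbp7, a secreted protein that binds insulin-like growth factors, had log2 ratios of 1.35 and 1.71. Of 4 senescence genes counted in both libraries, 3 were higher and 0 lower. The medians were 1.06 over 6 genes counted at 12 months and 1.90 over 4 genes at 3 months.

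Among TGF-beta and matrix genes, 6 of 12 counted in both libraries were higher and 0 lower. The medians were 0.82 over 16 genes counted at 12 months and 1.13 over 15 genes at 3 months. Tgfb2, a TGF-beta ligand, was at 12.7 CPM in members and 2.35 CPM in AT2 cells at 12 months, and at 28 and 1.18 CPM at 3 months. Itgb6, the beta chain of the integrin that activates latent TGF-beta, was at 26.4 and 5.87 CPM at 12 months and at 47.4 and 5.14 CPM at 3 months, members first. The ligand Tgfb1 and the receptor Tgfbr1 had log2 ratios of 0.04 and 0.18 at 12 months and 0.33 and 0.74 at 3 months, with intervals that include 0. Thbs1, a matrix activator of latent TGF-beta, had log2 ratios of 1.02 and 2.14.

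Of the YAP targets, 3 of 9 were higher and 0 lower (medians 0.45 and 0.73, and 0.17 and 0.44 with median-of-ratios scaling). Cyr61 was at 195 CPM in members and 45.7 CPM in AT2 cells at 12 months and at 204 and 24.2 CPM at 3 months, whereas Amotl2 had log2 ratios of 0.02 and 0.73. Among EGFR ligands and feedback genes, 2 of 6 were higher (medians 0.10 and 0.50, and -0.14 and -0.08 with median-of-ratios scaling). The ligand Areg, amphiregulin, was at 202 CPM in members and 72.5 CPM in AT2 cells at 12 months and at 446 and 78.8 CPM at 3 months, and Hbegf had log2 ratios of 0.74 and 1.44. The feedback genes Spry2 and Errfi1 had log2 ratios of -0.28 and -0.46 at 12 months and -0.35 and -0.11 at 3 months. Of the glycolysis and hypoxia genes, 4 of 13 were higher and 0 lower (medians 0.43 and 0.40), and Eno1, enolase 1, had log2 ratios of 1.60 and 1.68. The medians of this list were 0.19 and 0.03 with median-of-ratios scaling. Of the 13 genes, 3 were then higher and 1 lower at 12 months, and 1 higher and 2 lower at 3 months.

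NF-kB, interferon and stress genes had medians near that of all genes at 12 months and above it at 3 months. Medians were 0.28 and 1.21 for NF-kB targets, 0.20 and 0.97 for interferon-stimulated genes and 0.14 and 0.63 for stress and immediate early genes. They cover 16 and 14 NF-kB targets, 18 and 8 interferon-stimulated genes and 18 and 20 stress genes, at 12 and 3 months. The medians at the 2 ages thus do not rest on the same genes. With median-of-ratios scaling, the 12-month medians of the interferon and stress genes were below 0 (-0.06 and -0.11). In both libraries 7 of 14 NF-kB targets and 2 of 18 stress genes were higher and 0 lower. Nfkbia, the inhibitor of NF-kB, was at 373 CPM in members and 301 CPM in AT2 cells at 12 months, and at 316 and 96.4 CPM at 3 months. Isg15 was at 198 and 198 CPM at 12 months, and at 45.0 and 15.3 CPM at 3 months, where 1 member gave 62.2% of its UMIs. Of the 8 interferon genes counted in both libraries, 0 were higher and 1 (Ifi27l2a) lower. Class I and II MHC genes had medians of -0.18 and 0.25 (-0.42 and -0.12 with median-of-ratios scaling), with 0 of 16 past 1.5-fold in both. Among transcription factors, Sox4, a factor of progenitor cells, was higher (0.92 and 1.43) and Etv5, a factor that maintains AT2 cells, lower (-0.71 and -0.72), with 1 of 16 higher and 1 lower in both (medians 0.08 and 0.37, and -0.16 and 0.01 with median-of-ratios scaling). Of 3 proliferation genes counted in both libraries 1, Ccnd1, was higher (0.61 and 0.70). The proliferation median was 0.98 over 8 genes counted at 12 months, of which 5 were higher, and 0.40 over 3 genes at 3 months. Acute-phase genes had medians of -0.43 and -0.38, with 0 of 12 higher and 2 lower. The 12 mitochondrial genes had medians of 0.06 and -0.51, with 0 past 1.5-fold in both.

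**Figure D4:**
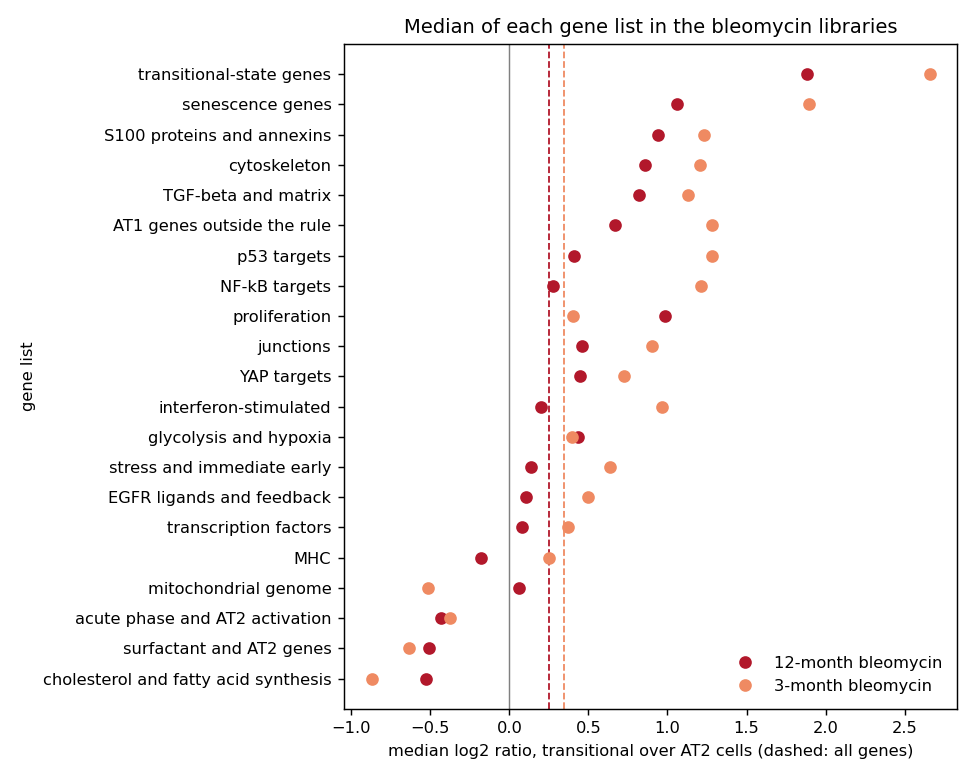
Median log2 ratio of transitional over AT2 cells (x axis) of 21 gene lists, without the keratin list of 3 and 4 counted genes (y axis) in the 12-month and 3-month bleomycin libraries; each point is the median of the genes of a list at 20 CPM or more, and dashed lines mark the medians of all genes, 0.25 at 12 months and 0.34 at 3 months. Of the lists drawn, the transitional-state list is highest at 1.88 and 2.66, and surfactant, lipid synthesis and acute-phase lists lie below 0 at both ages.

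RNA of other cell types differed between classes and members, and its part in single results was not tested. Basal cell markers were near 0: Trp63, Krt5 and Krt17 had 0 UMIs in the members of both bleomycin libraries, and the 8 basal markers summed to 3.64 CPM in members and 1.03 CPM in AT2 cells at 12 months and to 0 and 4.49 CPM at 3 months. Leukocyte markers (9 genes) summed to 263 CPM in members and 126 CPM in AT2 cells at 12 months, where 5 members held 10 or more UMIs and 1 of them 140, and to 40.1 and 42.2 CPM at 3 months, where no member held more than 2. Neuroendocrine and tuft markers (8 genes) summed to 23.6 and 12.9 CPM at 12 months and to 122 and 11.8 CPM at 3 months, and 1 member held 85% of the 3-month UMIs. Mesenchymal markers (13 genes) summed to 150 and 83.6 CPM at 12 months and to 192 and 82.2 CPM at 3 months. The club markers outside the rule summed to 510 and 1146 CPM at 12 months and to 1538 and 2965 CPM at 3 months, and Muc5ac and Tff2 had 0 UMIs in members. Macrophage markers (17 genes, with Lyz1 and Lpl, which AT2 cells also express) summed to 2961 CPM in members and 5631 CPM in AT2 cells at 12 months and to 2674 and 8859 CPM at 3 months. In all, 76 and 31 members held 10 or more of these UMIs, and 1 member held 812 at 12 months and 1 held 645 (29.3%) at 3 months. The median member held 10 and 8 of these UMIs, and the median AT2 cell 10 and 10, at 12 and 3 months. Mesothelial markers outside the rule summed to 768 and 677 CPM at 12 months, where 57 members held 10 or more, and to 591 and 621 CPM at 3 months, where 17 did, members first. The median member held 6.5 and 2 mesothelial UMIs, and the median AT2 cell 5 and 3, at 12 and 3 months. Ciliated markers outside the rule were higher in members, at 139 and 103 CPM at 12 months and at 469 and 192 CPM at 3 months, where 1 member held 90 UMIs. Neutrophil markers summed to 156 and 110 CPM at 12 months, with 118 UMIs in 1 member, and at 3 months the member with the most held 2. Leaving out the 6, 1, 1 and 0 members with 10 or more leukocyte or neuroendocrine and tuft UMIs gave 150 higher and 30 lower genes at 12 months and 515 and 76 at 3 months.

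Members of the 12-month bleomycin library were last set against those of the 3-month bleomycin library, in genes at 100 CPM or more in either, with a call at 2-fold and an interval that leaves out 0. Of 1419 genes, 30 (2.11%) were higher and 34 (2.4%) lower at 12 months. Ifi27l2a, an interferon-stimulated gene, was at 569 CPM in 12-month members and 12.2 CPM in 3-month members, and the AT2 cells had 867 and 23.5 CPM. H2-Eb1, an MHC class II chain, was at 450 and 29.2 CPM in members and at 526 and 36.7 CPM in AT2 cells, and Ifitm3 at 641 and 114 CPM in members and 447 and 33.7 CPM in AT2 cells, each 12-month first. Cxcl1 and Cxcl2, neutrophil chemokines, were at 132 and 176 CPM in 12-month members and at 26.8 and 7.30 CPM in 3-month members, and at 174 and 150 CPM in 12-month AT2 cells and 27.2 and 10.3 CPM in 3-month AT2 cells. These genes thus differed between the libraries in AT2 cells in the same direction.

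Among the genes lower at 12 months, Prss23 was at 40.0 CPM in 12-month members and 106 CPM in 3-month members, and Hspb1, a small heat-shock protein, at 145 and 399 CPM. AT2 cells held Prss23 at 2.55 and 3.95 CPM and Hspb1 at 50.5 and 90.5 CPM, 12-month first. Of the Hspb1 UMIs of members, 33.3% at 12 months and 23.5% at 3 months came from 1 cell each. Ffar4, a fatty acid receptor, was at 50.9 CPM in 12-month members and 174 CPM in 3-month members, and at 29.3 and 63.8 CPM in AT2 cells. Spp1 (74.1% of its 12-month UMIs) and Resp18 (98.9% of its 3-month UMIs) differed through 1 cell. The depth of the members and their mix of Sftpc-low and Sftpc-high cells also differed between these libraries, and their part in the result was not tested. Between bleomycin and PBS members, 116 of 1716 genes (6.76%) were higher and 208 (12.1%) lower at 12 months, and 52 of 1859 (2.8%) higher and 268 (14.4%) lower at 3 months. These counts rest on the 5 and 4 PBS cells, and the genes lower after bleomycin included Resp18 and Insm1 at 12 months and Ube2c and Nusap1 at 3 months, each with all of its PBS UMIs from 1 cell. Lrg1, an acute-phase glycoprotein, was at 1271 CPM in bleomycin members and 26.7 CPM (1 UMI) in PBS members at 12 months, and at 955 CPM in bleomycin members at 3 months, with 0 UMIs in PBS members. AT2 cells differed in the same direction, with Lrg1 at 2369 CPM after bleomycin and 408 CPM after PBS at 12 months and at 1886 and 268 CPM at 3 months.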

How the data were processed

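Droplet 3′ RNA-seq (10x Genomics) was run on sorted GFP+ cells, 1 library per group of 3 pooled mice, per the labels' protocols. The authors deposited filtered UMI counts per gene and cell for 27998 genes. The submitters' processing notes name the build mm10, Cell Ranger (version not given there) and Seurat 3.2.2. The deposited counts were read as raw whole-number counts.

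Members and AT2 cells were picked by fixed limits, and UMIs were summed per population and library and scaled to CPM. Log2 ratios used a prior of 0.5 counts, with exact conditional-binomial 95% intervals, Poisson intervals for levels and Clopper-Pearson intervals for shares, all for counting error only. Genes at 20 CPM or more in either population were counted, and the 21 genes of the rule were left out. There was no test: each group was 1 library, and the members were chosen on the same cells. Named genes are the 15 highest by the smaller and the 15 lowest by the larger of the 2 bleomycin ratios, without predicted, mitochondrial, ribosomal, haemoglobin and other-type marker genes. From each of 22 lists the first 4 genes and up to 4 more with the largest ratios could be named, and between libraries the 8 highest and 8 lowest genes at 100 CPM or more. The genes followed along the Sftpc range (Clu among them), S100g, the cells just outside the limits and the split by Sftpc were chosen after the values were seen. The members and lists were chosen with earlier results of these data known. Doublets were called with Scrublet in scanpy 1.11.5 and kept, except in an alternative. Intervals and 2-fold calls were tested on simulated Poisson counts without differences between cells or mice, which cover counting error only. Of unchanged genes, 0.0235% and 0.406% were called at 12 and 3 months in the bleomycin libraries. In the PBS libraries, where members hold few UMIs, 49.3% and 45.9% were called. Gene positions are from GENCODE M21. Python 3.11.15, numpy 2.4.6 and scipy 1.17.1 were used.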

Additional observations from a re-analysis of the deposited data

Results flagged for a closer look

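Of 4578 genes counted in both bleomycin libraries, 35 (0.765%) differed between members and AT2 cells in opposite directions at the 2 ages with both counting intervals off 0, and the difference was not tested. Of these, 19 were lower at 12 months and higher at 3 months and 16 the reverse. The 8 that belong to the named gene lists follow. The 3 MHC class I genes were lower at 12 months and higher at 3 months, with log2 ratios of -0.19 and 0.24 for B2m, -0.16 and 0.34 for H2-D1 and -0.26 and 0.26 for H2-K1. The immediate early genes had the same signs, at -0.081 and 0.30 for Fos and -0.14 and 0.63 for Jun. The mitochondrial genes had the opposite signs, at 0.13 and -0.47 for mt-Atp6, 0.11 and -0.33 for mt-Cytb and 0.16 and -0.47 for mt-Nd1. The median of all genes was 0.25 and 0.34, and with median-of-ratios scaling Jun alone of the 8 had opposite signs, at -0.38 and 0.27.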

How the results depend on the processing

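No paired analysis was possible because each group was 1 library and no comparison had a test. The shares of transitional cells moved with depth and with the Cldn4 limit. Thinned to 3000 UMIs they were 1.47% and 1.35% in the 12-month and 3-month bleomycin libraries, and thinned to 2000 UMIs 1.04% and 0.838%, with 0.0439% in the 3-month PBS library. With Cldn4 at 2 or more UMIs the shares were 1.74% (12-month bleomycin), 1.30% (3-month bleomycin) and 0.0364% (12-month PBS), and with Sftpc below 5%, added after seeing the data, 1.34% and 0.953% in the bleomycin libraries. Counts of genes are given as higher and lower, first at 12 months and then at 3 months after bleomycin. They were 499 and 78, then 1247 and 181, in cells thinned to 3000 UMIs; 98 and 83, then 232 and 255, with median-of-ratios scaling; 44 and 10, then 108 and 17, at 100 CPM or more. They were 1420 and 534, then 2178 and 574, with 10 counts and no CPM minimum, and 743 and 247, then 1410 and 273, with Cldn4 at 2 or more UMIs. Without the 20 most abundant genes in the total, 109 and 238 were lower. In members with Sftpc below 5% they were 1250 and 322, then 2431 and 403, and in the others 54 and 13, then 224 and 49. The share of higher calls thus depends on the scaling. Of 840 values of the 30 named genes under these alternatives, 839 kept their sign, and Sprr1a at 12 months was at -1.39 in members with Sftpc at 5% or more. Of the 840 values, 223 lay outside the counting interval of the main setting. The 30 genes were picked for large ratios, so most signs were set beforehand. The 100 CPM minimum and the setting with 10 counts, 60 values each, leave the ratio of a gene unchanged, so its sign was fixed there. Of 616 list medians 600 kept their sign, and the median of the keratin list at 3 months was -0.022 with 10 counts and no CPM minimum, where more genes of low counts enter. The PBS members, at 37464 and 24661 UMIs, limit any comparison there to the most abundant genes.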
